A study of Homo sapiens with 12 samples.

Results

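The genes described here are 10 transcription factors that build or mark the melanocyte lineage and the neural crest from which it arises: SOX10, SOX9, SOX2, PAX3, TFAP2A, TFAP2C, ZEB1, ZEB2, SNAI2 and POU3F2. They were taken by name, from a list drawn up with earlier results of these data known, and all 10 were present among the 40173 gene IDs of the expression table. RNA had been sequenced from 624Mel, an established human melanoma cell line, in 4 conditions with 3 libraries each. Transfection was with siCTRL, the control siRNA, or siMITF, an siRNA against MITF, and 24 h later the cells were left unstimulated or given 5 ng/mL interferon gamma (IFNγ) for 24 h. The conditions are called siCTRL, siCTRL + IFNγ, siMITF and siMITF + IFNγ. All 12 libraries thus came from transfected cells of 1 line. The study's methods describe the replicates of its experiments in general as independent biological ones, and the labels give only replicate numbers, so the p-values measure the spread between these libraries. Levels are given as TPM, a transcript's share of its library corrected for transcript length, so that genes can be compared with each other. Differences are given as log2 of TPM + 1, which understates the change of genes with low levels.

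Melanocytes descend from the neural crest, a migratory population of the embryo. SOX10 and PAX3 act together on the promoter of MITF, the master regulator of pigment cells, and TFAP2A is an AP-2 factor that shares many targets with MITF. SOX9 and SOX2 are SOX relatives that mark other crest derivatives and stem-like states. SNAI2 and ZEB2 belong to the differentiated melanocyte programme, whereas ZEB1 is known from mesenchymal-like melanoma cells. POU3F2, also called BRN2, is a POU factor linked to poorly differentiated, invasive melanoma cells.

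Promoter sequences were read from RefSeq on GRCh38.p14 to show the DNA just before the start sites of members whose levels differed between conditions. The table held entries for 6 of the 10 members (13 start sites) and none for SOX10, SOX9, TFAP2C or SNAI2. Each window has the 250 bases before a start site, written 5′ to 3′ on the strand of the gene. Both strands were searched for CACGTG and CATGTG, the boxes that MITF is known to bind, CAGGTG, the box of ZEB and SNAI factors, GCCNNNGGC, the AP-2 motif, and TTCNNNGAA, the interferon-gamma-activated site. A base may belong to matches of more than 1 motif, and matches would stand in capitals. The following 3 windows, of a member that IFNγ raised and of 2 members that rose after siMITF, held none of them.
TFAP2A, chr6:10419660-10419909, minus strand: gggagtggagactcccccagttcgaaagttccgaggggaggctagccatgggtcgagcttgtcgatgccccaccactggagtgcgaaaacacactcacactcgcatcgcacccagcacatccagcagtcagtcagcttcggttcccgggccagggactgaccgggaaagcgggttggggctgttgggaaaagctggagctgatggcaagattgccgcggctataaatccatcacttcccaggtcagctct
PAX3, chr2:222298999-222299248, minus strand: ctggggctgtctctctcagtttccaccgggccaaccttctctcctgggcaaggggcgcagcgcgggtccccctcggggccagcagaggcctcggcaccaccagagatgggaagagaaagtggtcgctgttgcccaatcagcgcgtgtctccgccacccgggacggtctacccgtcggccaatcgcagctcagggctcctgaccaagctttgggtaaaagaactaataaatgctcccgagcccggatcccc
POU3F2, chr6:98834324-98834573, plus strand: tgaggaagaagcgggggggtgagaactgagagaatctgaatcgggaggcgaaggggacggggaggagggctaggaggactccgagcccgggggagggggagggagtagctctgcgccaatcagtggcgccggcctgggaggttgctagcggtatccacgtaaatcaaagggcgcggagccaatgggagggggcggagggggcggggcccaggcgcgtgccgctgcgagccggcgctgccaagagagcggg
CCDC140, a long non-coding gene on the opposite strand, overlaps the annotated span of PAX3. The long non-coding genes TFAP2A-AS1 and TFAP2A-AS2, also on the opposite strand, overlap that of TFAP2A. Whether they cover the windows was not examined. The window of ZEB2 lies inside the annotated span of the gene (144364364 to 144521057), downstream of its 5′ end. ZEB2-AS1, a long non-coding gene on the opposite strand, is among the genes that overlap that span. The ZEB2 window held 1 CATGTG box, read here as its reverse complement in capitals, which began at position -180 from the start site.
ZEB2, chr2:144520284-144520309, minus strand: atcacgttttCACATGatgctcacgc
In the windows of all 35116 RefSeq start sites, CACGTG was found in 6.34%, CATGTG in 9.42%, CAGGTG in 17.5%, GCCNNNGGC in 19.8% and TTCNNNGAA in 6.57%. Of the 13 windows of members, 0, 3, 2, 1 and 0 held these motifs in the same order. A match is a run of letters and not a bound site.

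The libraries listed 11850 to 12377 genes at 2 TPM or more, and 7.42% to 16.9% of TPM fell on mitochondrial genes, with replicate 2 lowest in every condition. The number of reads behind the TPM values is unknown. The melanocytic markers MITF, MLANA, PMEL, TYR, TYRP1 and DCT were present in every library, with summed levels of 7671 to 9114 TPM in siCTRL, 6986 to 9421 in siCTRL + IFNγ, 2085 to 2372 in siMITF and 1938 to 2432 in siMITF + IFNγ. Keratinocyte markers reached at most 0.0721 TPM in sum, with KRT1 at 0 throughout. The summed immune markers were 2.66 to 2.97 TPM in siCTRL and 4.58 to 5.42 TPM in siMITF, mostly LYZ, with CD3E at 0. The summed fibroblast markers were 5.29 to 6.73 TPM in siCTRL and 7.40 to 8.72 TPM in siMITF, mostly LUM. Their part in the results was not tested. In bulk RNA, fewer cells with a transcript and less transcript per cell cannot be told apart.

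MITF, the target of the siRNA, stood at 187, 229 and 217 TPM in siCTRL replicates 1 to 3 and at 36.0, 49.7 and 41.7 TPM in siMITF. With IFNγ it stood at 158, 246 and 243 TPM in siCTRL and at 37.5, 55.1 and 51.3 TPM in siMITF. Every library labelled siMITF was thus below every library labelled siCTRL, with log2 differences of -2.29 without and -2.14 with IFNγ.

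After MITF knockdown the lineage factors split by gene rather than moving one way. SNAI2 fell to 0.386 of its level, POU3F2 and TFAP2C rose 2.75-fold and 2.89-fold, and SOX10, PAX3, TFAP2A and ZEB2 differed by less than a log2 unit. Of the 10 members, 7 had a mean of at least 2 TPM, the limit for testing, and each of these did so in all 4 conditions. SOX9, SOX2 and ZEB1 did not. In the comparison of siMITF with siCTRL, 3 of the 7 rose (TFAP2C, PAX3 and POU3F2) and 3 fell (SNAI2, SOX10 and TFAP2A) at an adjusted p under 0.05 in limma. Over all 12773 gene IDs tested, 34.8% were called, 21.0% as higher and 13.8% as lower. With the further limit of an absolute log2 difference of at least 1, SNAI2, POU3F2 and TFAP2C remained, 3 of 7 beside 6.10% of all genes. The median absolute log2 difference was 0.35 for the 7 members and 0.22 for all genes.

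With IFNγ present, the same comparison called 4 members as higher (TFAP2C, PAX3, ZEB2 and POU3F2) and 3 as lower (SNAI2, SOX10 and TFAP2A). In this setting 33.1% of all genes were called, 18.4% as higher and 14.7% as lower. SNAI2 and POU3F2 also passed the log2 limit of 1, 2 of 7 beside 5.68% of all genes. Averaged over both IFNγ states, 6 libraries against 6, the test called 4 members as higher and 3 as lower, beside 48.0% of all genes, 28.2% higher and 19.8% lower.

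**Figure D1:**
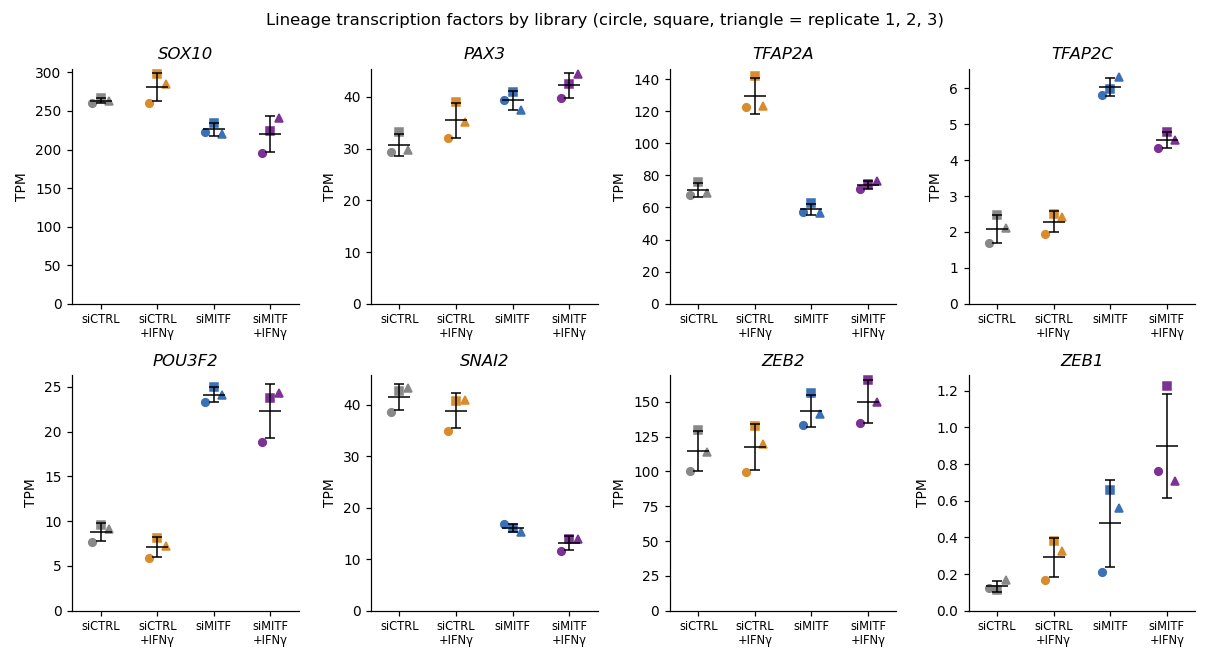
Levels in TPM (vertical axes, each from 0) of the 8 members above trace level in the 12 libraries, with circles, squares and triangles for replicates 1, 2 and 3, and bars for the mean ± SD (n = 3) of each condition. SNAI2 lies at 11.5 to 16.9 TPM in the siMITF libraries and at 34.9 to 43.2 TPM in the siCTRL libraries, POU3F2 and TFAP2C lie higher in all siMITF libraries, and TFAP2A is highest in siCTRL + IFNγ.

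SOX10, the SOX factor that maintains melanocytes and glia, was the most abundant member in every condition. Its levels were 260, 267 and 262 TPM in siCTRL and 223, 235 and 220 TPM in siMITF. With IFNγ they were 261, 297 and 285 TPM in siCTRL and 196, 224 and 241 TPM in siMITF. The siMITF libraries lay below the siCTRL libraries in both states, while most of the transcript remained. The log2 difference was -0.22 (SE 0.08, adjusted p = 0.0482, limma) without IFNγ, -0.35 (adjusted p = 0.00418) with it, and -0.29 (adjusted p = 0.00101) on average. The first of these calls was lost, with adjusted p up to 0.137, without any 1 of the siCTRL libraries or of the siMITF libraries, and also without siCTRL + IFNγ replicate 3 or siMITF + IFNγ replicate 2. It was lost too without the filter on low levels (0.0802) and with moderation without a trend (0.0753). The ratio of SOX10 to MITF was 1.16 to 1.39 in the siCTRL libraries and 4.73 to 6.20 in the siMITF libraries.

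SOX10 (chromosome 22, 37970686 to 37987422, minus strand, GRCh38) lies within the annotated span of POLR2F, a subunit of RNA polymerases, which is on the opposite strand. The library kit does not mark strand, so reads from the shared part could be assigned to either gene. In siCTRL POLR2F was at 242 to 290 TPM, and siMITF libraries had 128 to 134 TPM, a log2 difference of -1.04, and at -1.01 with IFNγ. The part of POLR2F in the lower SOX10 level was not tested. POLR2F was named after its values were seen.

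PAX3, a paired-box factor that acts with SOX10 on MITF, moved the other way. It stood at 29.2, 33.1 and 29.7 TPM in siCTRL and at 39.4, 41.0 and 37.5 TPM in siMITF, without overlap. In the presence of IFNγ it was at 32.1, 39.0 and 35.2 TPM in siCTRL and at 39.7, 42.6 and 44.5 TPM in siMITF, with the nearest libraries at 39.0 and 39.7 TPM. The log2 difference was 0.35 (SE 0.09, adjusted p = 0.00848, limma) without IFNγ and 0.25 (adjusted p = 0.0446) with it. On average it was 0.30 (adjusted p = 0.00160). With IFNγ the call was lost when 9 of the 12 libraries were left out 1 at a time, with adjusted p up to 0.132, and with only the compared conditions in the fit (0.156), without the filter (0.0580) or without a trend (0.0517). It held without siCTRL replicate 2, siCTRL + IFNγ replicate 2 or siMITF + IFNγ replicate 1.

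SOX9 and SOX2 were at trace level. SOX9 was listed between 0 and 3.28e-07 TPM in all libraries. SOX2 was listed at 0 in the 3 siCTRL libraries and reached at most 0.0311 TPM, in siMITF replicate 1. No change could be read at such levels, and no fold is given.

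The AP-2 factors TFAP2A and TFAP2C bind the same motif, and they moved in opposite directions after MITF knockdown. TFAP2A stood at 68.0, 76.0 and 68.8 TPM in siCTRL and at 57.2, 62.9 and 56.4 TPM in siMITF. With IFNγ it stood at 123, 142 and 123 TPM in siCTRL and at 71.3, 74.6 and 76.2 TPM in siMITF. The groups did not overlap in either state. The test of whether the difference depended on IFNγ is the interaction, which missed the threshold (adjusted p = 0.0516, limma). The log2 difference between siMITF and siCTRL was -0.26 (SE 0.08, adjusted p = 0.0214, limma) without IFNγ and -0.79 (SE 0.08, adjusted p = 8.55e-06) with it. The first call was lost without siCTRL replicate 2 (adjusted p = 0.0827), siMITF replicate 1 (0.0778) or siMITF replicate 3 (0.0811).

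TFAP2C, known from trophoblast and germ cells as well as the crest, stood at 1.69, 2.47 and 2.12 TPM in siCTRL and at 5.83, 5.97 and 6.32 TPM in siMITF. Under IFNγ it was at 1.95, 2.49 and 2.41 TPM in siCTRL and at 4.33, 4.77 and 4.55 TPM in siMITF. Its siMITF libraries were above its siCTRL libraries in both states. The log2 difference was 1.19 (SE 0.11, adjusted p = 4.39e-06, limma) without IFNγ and 0.76 (adjusted p = 2.16e-04) with it. TFAP2A remained the more abundant of the pair, but its ratio to TFAP2C was 30.8 to 40.2 in siCTRL and 8.92 to 10.5 in siMITF. With IFNγ the ratio was 51.2 to 62.8 and 15.6 to 16.7.

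SNAI2, also called SLUG, is a zinc finger repressor that melanocytes need for their development. It stood at 38.7, 42.8 and 43.2 TPM in siCTRL and at 16.9, 16.0 and 15.2 TPM in siMITF. In IFNγ-treated cells it was at 34.9, 40.8 and 40.9 TPM in siCTRL and at 11.5, 14.0 and 14.0 TPM in siMITF. The lowest siCTRL library was above the highest siMITF library by a wide margin in both states. The log2 difference was -1.32 (SE 0.10, adjusted p = 5.28e-07, limma) without and -1.50 (adjusted p = 2.02e-07) with IFNγ, and it stayed between -1.29 and -1.37 for the comparison without IFNγ over all alternatives run. SNAI2 lies on chromosome 8, from 48917598 to 48921740 on the minus strand of GRCh38.

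ZEB2, a zinc finger factor whose loss in melanocytes is known to lower MITF, stood at 100, 130 and 114 TPM in siCTRL and at 133, 156 and 141 TPM in siMITF. In IFNγ-treated cells its level was 99.8, 133 and 120 TPM in siCTRL and at 135, 166 and 150 TPM in siMITF. The siMITF libraries lay above the siCTRL libraries in both states. Replicate 1 was lowest in 3 or 4 conditions in all 7 tested members. For ZEB2 it was lowest, and replicate 2 highest, in all 4. The log2 difference was 0.33 (SE 0.12, adjusted p = 0.0557, limma) without IFNγ, which missed the threshold, and 0.35 (adjusted p = 0.0412) with it. Blocking on the replicate number, the first became a call (adjusted p = 2.86e-04). It also became a call with median centring (0.00268), quantile normalization (0.00469), only the compared conditions (0.0173) or without mitochondrial genes (0.0136). The same held without siCTRL replicate 2, siCTRL + IFNγ replicates 1 or 2, or siMITF + IFNγ replicate 1 (up to 0.0436). The average over both states was 0.34 (adjusted p = 0.00583). The call with IFNγ was lost with only the compared conditions in the fit (0.0881), without the filter (0.101) or without a trend (0.0533), and when 7 of the 12 libraries were left out 1 at a time, with adjusted p up to 0.143. Those calls were lost without siCTRL replicate 3, siCTRL + IFNγ replicates 1 or 3, siMITF replicates 1 or 3, or siMITF + IFNγ replicates 2 or 3.

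ZEB1, its relative, was 2 to 3 orders of magnitude lower. It stood at 0.122, 0.112 and 0.168 TPM in siCTRL and at 0.211, 0.658 and 0.560 TPM in siMITF. In the IFNγ libraries it reached 0.169, 0.378 and 0.325 TPM in siCTRL and at 0.762, 1.23 and 0.707 TPM in siMITF. Every siMITF library was above every siCTRL library of the same IFNγ state, and how often this held over all genes was not counted. ZEB1 was not tested in the main fit. In a fit without the filter, over 29003 gene IDs, the log2 difference was 0.37 (adjusted p = 0.0959, limma) without IFNγ, 0.55 (adjusted p = 0.0182) with it and 0.46 (adjusted p = 0.00491) on average. The ratio of ZEB2 to ZEB1 was 678 to 1152 in siCTRL and 237 to 632 in siMITF. With IFNγ it was 351 to 592 in siCTRL, which overlapped siMITF without IFNγ, and 135 to 212 in siMITF.

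POU3F2 stood at 7.70, 9.59 and 9.08 TPM in siCTRL and at 23.3, 25.0 and 24.1 TPM in siMITF. Under IFNγ its level was 5.94, 8.17 and 7.27 TPM in siCTRL and at 18.9, 23.8 and 24.3 TPM in siMITF. The groups were far apart in both states. The log2 difference was 1.36 (SE 0.13, adjusted p = 3.77e-06, limma) without IFNγ and 1.52 (adjusted p = 1.66e-06) with it. SNAI2 exceeded POU3F2 by 4.46 to 5.02 times in siCTRL, whereas its ratio to POU3F2 was 0.632 to 0.724 in siMITF. The order of these factors was thus inverted in every siMITF library.

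**Figure D2:**
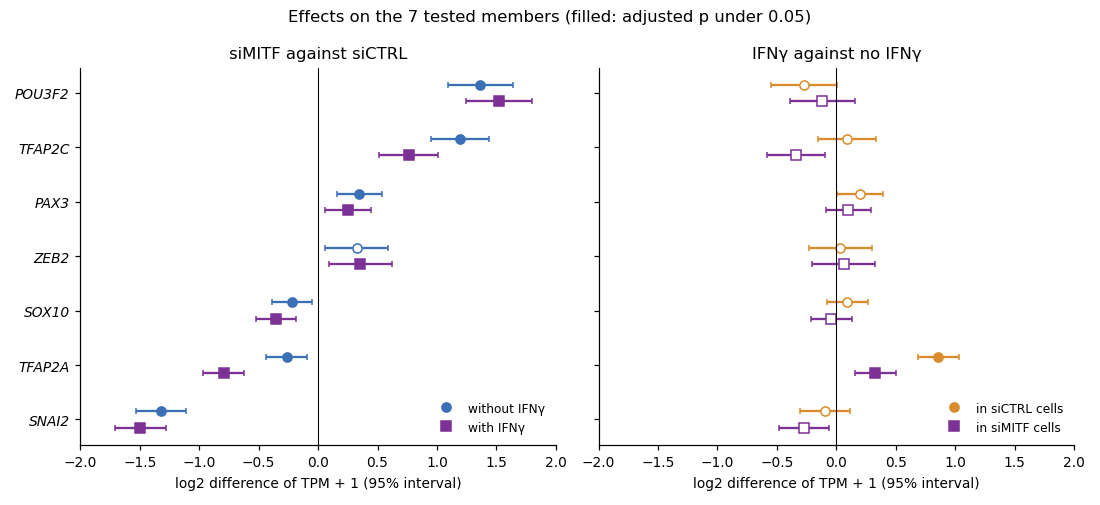
Log2 differences of TPM + 1 (horizontal axes) for the 7 tested members with 95% intervals from limma, for siMITF against siCTRL without (circles) and with IFNγ (squares) on the left, and for IFNγ against no IFNγ in siCTRL (circles) and siMITF cells (squares) on the right. Filled symbols have an adjusted p under 0.05: SNAI2 at -1.32 and POU3F2 at 1.36 are the outermost values without IFNγ on the left, and TFAP2A at 0.86 and 0.33 holds the only filled symbols on the right.

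In siCTRL cells IFNγ raised TFAP2A, 1 of the 7 tested members, and lowered 0. At an unadjusted p under 0.05 there were 2, both higher, beside 26.3% of all genes at that limit. Over all genes 12.9% were called, 6.80% as higher and 6.14% as lower, so the members' share was near that of all genes. With libraries centred on their median or quantile normalized, 3 members were called, with PAX3 higher (adjusted p = 0.00649 and 0.00279) and POU3F2 lower (0.0171 and 0.00896). No member passed the log2 limit of 1, beside 2.52% of all genes. TFAP2A stood at 68.0 to 76.0 TPM without and 123 to 142 TPM with IFNγ, a 1.82-fold rise and a log2 difference of 0.86 (SE 0.08, adjusted p = 7.70e-06, limma). PAX3 differed by 0.20 (adjusted p = 0.176) and SOX10 by 0.09 (95% interval -0.08 to 0.27). POU3F2 differed by -0.27 (adjusted p = 0.194), and with the replicate block this became a call (adjusted p = 0.0249). SNAI2, ZEB2 and TFAP2C differed by -0.10, 0.03 and 0.09, with overlapping libraries.

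In siMITF cells IFNγ again raised TFAP2A and no other member. TFAP2A stood at 56.4 to 62.9 TPM in siMITF and at 71.3 to 76.2 TPM in siMITF + IFNγ, a log2 difference of 0.33 (SE 0.08, adjusted p = 0.0123, limma). This call was lost without siMITF replicate 1 (adjusted p = 0.0526) or siMITF replicate 3 (0.0550). The share called over all genes was 20.2%, with 7.99% higher and 12.2% lower, and 2.95% passed the log2 limit of 1, which no member did. TFAP2C and SNAI2 lay below in all 3 libraries with IFNγ, at -0.34 (adjusted p = 0.0502) and -0.27 (adjusted p = 0.0704). Both became calls with the replicate block (adjusted p = 0.0170 and 0.0205), which took the count from 1 to 3. The median gene itself stood at -0.10 in this comparison, and with libraries centred on their median 4 members were called, TFAP2A and PAX3 as higher and SNAI2 and TFAP2C as lower.

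Whether the IFNγ effect differed between siMITF and siCTRL cells was tested directly by the interaction. Of the 7 members 0 were called in limma, and 2 had an unadjusted p under 0.05, both with a negative value. At that unadjusted limit the share over all genes was 7.67%. The share called over all genes was 0.947%. For TFAP2A the effect of IFNγ was smaller in siMITF cells by 0.53 on the log2 scale, a difference of -0.53 (95% interval -0.77 to -0.28, adjusted p = 0.0516). With the replicate block the adjusted p was 0.00501, and between 0.00158 and 0.00568 with quantile normalization, without mitochondrial genes in the total, or with libraries centred on their median. For TFAP2C the difference was -0.43 (95% interval -0.78 to -0.09, adjusted p = 0.438). The intervals of the other members were -0.38 to 0.11 for SOX10, -0.37 to 0.17 for PAX3, -0.35 to 0.40 for ZEB2, -0.48 to 0.13 for SNAI2 and -0.23 to 0.55 for POU3F2.

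With both treatments together, compared with siCTRL, 4 members were higher (TFAP2C, PAX3, ZEB2 and POU3F2) and 2 lower (SNAI2 and SOX10). Over all genes 44.5% were called, 21.1% as higher and 23.4% as lower. SNAI2 at -1.59 (adjusted p = 4.78e-08, limma) and POU3F2 at 1.25 (adjusted p = 5.69e-06) passed the log2 limit of 1, 2 of 7 beside 8.75% of all genes. TFAP2A had overlapping libraries, at 68.0 to 76.0 TPM in siCTRL and 71.3 to 76.2 TPM in siMITF + IFNγ, with a difference of 0.06 (95% interval -0.11 to 0.24). PAX3 stood at 0.45 (adjusted p = 0.00123), ZEB2 at 0.39 (adjusted p = 0.0212), TFAP2C at 0.85 (adjusted p = 5.79e-05) and SOX10 at -0.26 (adjusted p = 0.0174). The means of TFAP2C were 2.09 TPM in siCTRL and 4.55 TPM in siMITF + IFNγ. Its difference ranged from 0.688 to 1.10 over the alternatives, so whether it passed the log2 limit of 1 depended on the setting. The SOX10 call was lost without siCTRL replicate 2 (adjusted p = 0.0503) or siMITF + IFNγ replicate 1 (0.0576), and that of ZEB2 without siCTRL replicates 1 or 3 or siMITF + IFNγ replicates 2 or 3 (up to 0.0928) or without the filter (0.0583). These comparisons share their siCTRL libraries with those above.

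The order of the levels, a description with no test, changed between conditions. In siCTRL the mean was 263 ± 3.18 TPM for SOX10, 115 ± 14.6 for ZEB2, 70.9 ± 4.39 for TFAP2A, 41.5 ± 2.50 for SNAI2, 30.7 ± 2.12 for PAX3, 8.79 ± 0.978 for POU3F2, 2.09 ± 0.387 for TFAP2C and 0.134 ± 0.0299 for ZEB1 (SD, n = 3), and no neighbours overlapped. In siCTRL + IFNγ TFAP2A (129 ± 11.1 TPM) overlapped ZEB2 (117 ± 16.6), and SNAI2 (38.8 ± 3.42) overlapped PAX3 (35.4 ± 3.45). In siMITF the order was SOX10 (226 ± 7.96 TPM), ZEB2 (143 ± 11.6), TFAP2A (58.8 ± 3.54), PAX3 (39.3 ± 1.76), POU3F2 (24.1 ± 0.866), SNAI2 (16.0 ± 0.812), TFAP2C (6.04 ± 0.254) and ZEB1 (0.476 ± 0.235). In siMITF + IFNγ it was the same, and no neighbours overlapped in either. SNAI2 thus dropped below both PAX3 and POU3F2 in the siMITF conditions.

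Other transcription factors of the lineage were followed for context in a list of 32. Of these, 12 were under the limit for testing, among them FOXD3, TFAP2B, TWIST2 and LMX1A, which were at 0 in all libraries. Of the 20 tested, 9 rose after siMITF, 5 fell and 6 did not pass the test, beside 34.8% of all genes called. IRF4, a factor of the pigmentation programme, stood at 12.5, 14.5 and 13.1 TPM in siCTRL and at 1.07, 1.69 and 1.25 TPM in siMITF, a log2 difference of -2.63 (adjusted p = 5.89e-09, limma). LEF1, the partner of beta-catenin, stood at 61.0, 74.1 and 66.1 TPM in siCTRL and at 199, 198 and 172 TPM in siMITF, a difference of 1.49. NR2F1, an orphan nuclear receptor of the crest, rose by 1.40 and GLI2, the effector of Hedgehog signalling, by 1.64 on the log2 scale. GLI2 stood at 0.165 to 1.12 TPM in siCTRL and 2.64 to 4.35 TPM in siMITF, the only condition where it reached the limit for testing. POU3F1, the close relative of POU3F2, fell by 1.57 on the log2 scale, from a mean of 13.2 TPM to 3.78 TPM. The ratio of POU3F2 to POU3F1 was 0.644 to 0.698 in siCTRL and 6.06 to 6.93 in siMITF, so that the more abundant member of this pair changed. SOX4, a SOXC factor, rose by 0.68. Among the 9, the call of RXRG (0.27, adjusted p = 0.0422, limma) was lost without any 1 of the siCTRL or siMITF libraries, without siCTRL + IFNγ replicate 3 or without the filter (up to 0.121), and that of SNAI1 (0.43, adjusted p = 0.0180) without siCTRL replicate 1, siMITF replicate 1 or siMITF replicate 2 (up to 0.0752).

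With IFNγ present, siMITF raised 9 and lowered 6 of the 20, and on average over both states it raised 10 and lowered 6. The shares called over all genes were 33.1% and 48.0%. With IFNγ GLI2 stood at 0.0876 to 0.444 TPM in siCTRL and 0.479 to 1.94 TPM in siMITF, both under the limit for testing. Its call there (0.79, adjusted p = 0.0405, limma) was lost without siCTRL + IFNγ replicates 2 or 3, siMITF replicate 3, or siMITF + IFNγ replicates 2 or 3. It was also lost without the filter or with quantile normalization (up to 0.159). The average of SNAI1 (0.26, adjusted p = 0.0279) was lost without siCTRL replicate 1, siCTRL + IFNγ replicate 1, siMITF replicates 1 or 2, or siMITF + IFNγ replicates 2 or 3, and under the same 2 settings (up to 0.0707). The call of RXRG for siMITF with IFNγ present was lost with only the compared conditions in the fit (0.39, adjusted p = 0.0674, limma). IFNγ raised 5 (SOX8, TBX3, IRF4, NR2F1 and SOX18) and lowered 2 (SNAI1 and RXRG) in siCTRL cells, beside 12.9% of all genes called. In siMITF cells it raised 5 (SOX8, SOX4, TBX3, IRF4 and SOX18) and lowered 4 (GLI2, SNAI1, RXRG and MSX1), beside 20.2% of all genes. The NR2F1 call was lost in 9 of the 12 fits without 1 library (adjusted p up to 0.159), holding without siCTRL replicate 2, siCTRL + IFNγ replicate 3 or siMITF + IFNγ replicate 1, and also without the filter (0.0538) or with only the compared conditions (0.139). The GLI2 call was lost without siMITF replicate 2 (0.0602), without the filter (0.0511) or with a pseudocount of 0.1 (0.0749). POU3F1 differed by -0.30 in siCTRL cells (adjusted p = 0.171), which became a call with the replicate block (adjusted p = 0.0496). IRF4 rose under IFNγ by 1.18 in siCTRL and by 1.60 in siMITF cells, where it reached 5.63, 6.22 and 6.37 TPM and stayed below its siCTRL level. SNAI1, the relative of SNAI2, fell under IFNγ by 0.77 and by 1.11 on the log2 scale, with levels of 5.24 to 6.16 TPM in siCTRL and 2.55 to 3.33 TPM in siCTRL + IFNγ. RXRG, the retinoid receptor known from a crest-like melanoma state, stood at 24.9 to 26.0 TPM in siCTRL and 11.2 to 12.5 TPM in siCTRL + IFNγ, a difference of -1.03 (adjusted p = 5.35e-06, limma). Against siCTRL, both treatments together raised 9 and lowered 8, beside 44.5% of all genes called. The interaction called 0 of the 20, beside 0.947% of all genes.

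**Figure D3:**
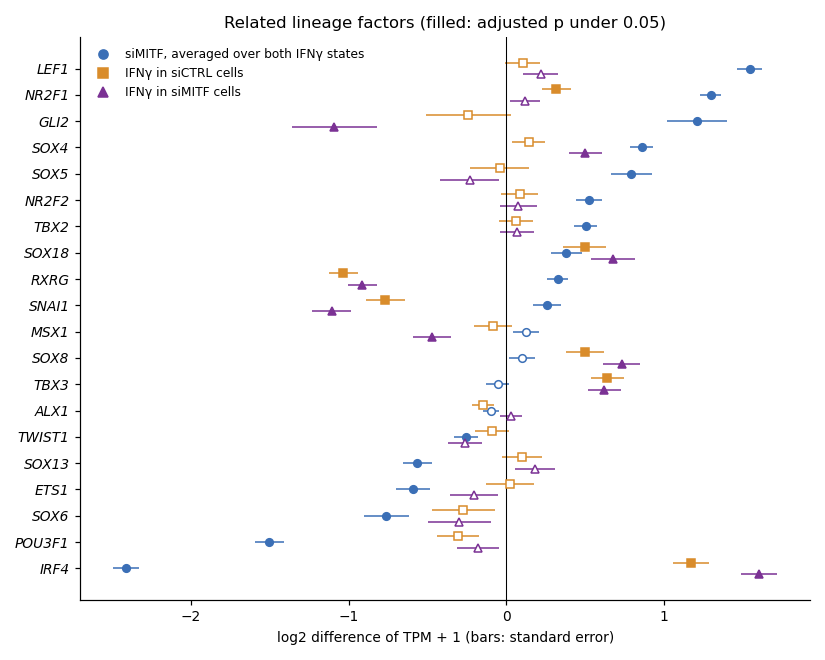
Log2 differences of TPM + 1 (horizontal axis, bars: standard error) of the 20 tested related factors for siMITF averaged over both IFNγ states (circles) and for IFNγ in siCTRL (squares) and siMITF cells (triangles), with filled symbols at an adjusted p under 0.05. IRF4 lies at -2.41 for siMITF and at 1.18 and 1.60 for IFNγ, POU3F1 at -1.50 and LEF1 at 1.55 for siMITF, and SNAI1 and RXRG are filled on the negative side for IFNγ.

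Genes known from SOX10 targets and from glia did not move as a block. All 10 were tested, and after siMITF 5 rose (ERBB3, CDH19, NES, S100B and MIA), 4 fell (GPM6B, EDNRB, FABP7 and MBP) and 1 did not pass. The share called over all genes was 34.8%. MIA, a secreted melanoma protein, stood at 11.9 to 12.7 TPM in siCTRL and at 76.6 to 78.2 TPM in siMITF, a log2 difference of 2.57 (adjusted p = 8.73e-10, limma). CDH19, a cadherin of Schwann cell precursors, stood at 12.3 to 15.5 TPM and at 38.3 to 42.4 TPM, a difference of 1.50. MBP, the myelin basic protein gene, went the other way, from 66.2 to 73.9 TPM to 11.6 to 13.2 TPM, a difference of -2.38. S100B rose by 1.02 and EDNRB, the endothelin receptor of melanoblasts, fell by 0.80 on the log2 scale. With IFNγ present 6 rose and 3 fell, on average 6 rose and 4 fell, and with both treatments against siCTRL 5 rose and 3 fell. The shares called over all genes were 33.1%, 48.0% and 44.5%. IFNγ raised 1 and lowered 2 in siCTRL cells, beside 12.9% of all genes called. It raised 3 and lowered 4 in siMITF cells, beside 20.2%. In the latter the CDH19 call (0.48, adjusted p = 0.0285, limma) was lost without any 1 of the siMITF libraries, without siMITF + IFNγ replicates 2 or 3, or without the filter (up to 0.101). The interaction called 1 of the 10, FABP7, beside 0.947% of all genes.

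Of 10 genes of the switch between epithelial and mesenchymal states, which ZEB and SNAI factors are known to control, 6 were tested. After siMITF 3 rose (FN1, TGFBI and CDH2), 2 fell (CDH3 and ESRP1) and 1 did not pass, beside 34.8% of all genes called. ESRP1, an epithelial splicing factor that ZEB factors are known to repress, stood at 8.13, 9.49 and 7.72 TPM in siCTRL and at 0.540, 0.489 and 0.228 TPM in siMITF, a log2 difference of -2.74 (adjusted p = 5.46e-09, limma). CDH2, N-cadherin, stood at 0.728 to 1.14 TPM and at 4.59 to 5.06 TPM, a difference of 1.55. TGFBI rose by 1.41, with 0.464 to 0.551 TPM in siCTRL and 2.89 to 3.22 TPM in siMITF. FN1, fibronectin, rose by 0.59. CDH2 and TGFBI reached the limit for testing only through conditions with siMITF, and ESRP1 only through conditions with siCTRL. The counts of this list thus include genes that were tested only because of the side where they were high. CDH1, E-cadherin and the known target of SNAI and ZEB repression, stayed at or below 0.698 TPM in all libraries and was not tested. VIM, vimentin, averaged 1717 TPM in siCTRL and 1895 TPM in siMITF, a difference of 0.14 (adjusted p = 0.0935), which became a call with the replicate block (adjusted p = 0.0327). With IFNγ present 3 rose and 2 fell, on average 4 rose and 2 fell, and with both treatments 3 rose and 1 fell. The shares called over all genes were 33.1%, 48.0% and 44.5%. TGFBI is among the rises, though with IFNγ it stood at 0.305 to 0.600 TPM in siCTRL and 1.03 to 2.07 TPM in siMITF. Its mean was under 2 TPM on both sides of the comparison with IFNγ and of that with both treatments. In the latter the TGFBI call was lost with quantile normalization (0.38, adjusted p = 0.103, limma). The call of VIM on average over both states was lost with median centring (adjusted p = 0.106, limma). IFNγ raised 1 and lowered 1 in siCTRL cells, and raised 2 and lowered 2 in siMITF cells, and the interaction called 0 of the 6. Over all genes these shares were 12.9%, 20.2% and 0.947%. In siCTRL + IFNγ CDH2 stood at 0.321 to 0.601 TPM, so both sides of its call in siCTRL cells lay under the limit for testing. That CDH2 call (-0.47, adjusted p = 0.0188, limma) was lost without siCTRL replicates 2 or 3 or siCTRL + IFNγ replicates 1 or 3 (up to 0.0820). The TGFBI call in siMITF cells (-0.60, adjusted p = 0.0146, limma) was lost without siMITF replicate 3 (0.0549) or with only the compared conditions (0.0526). FN1 under IFNγ in siCTRL cells (0.26, adjusted p = 0.0420) and VIM under siMITF with IFNγ (0.13, adjusted p = 0.0423) became calls with the replicate block.

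The tested genes whose pattern over the 12 libraries was most like that of each member were ranked by Pearson's r on the log2 scale, as a description with no test, since the points share libraries and conditions. SOX10 was most like CLCN7 (r = 0.986), MC1R (0.982) and AP5B1 (0.981). TFAP2A was most like RALA (0.988), CHAC1 (0.987) and WIPF1 (0.979), and TFAP2C most like NRCAM (0.989), AOPEP (0.988) and BTD (0.985). SNAI2 was most like SS18L1 (0.996), GREB1 (0.996) and EVA1A (0.995). POU3F2 was most like CDK5R1 (0.998), TNFRSF19 (0.998) and PELI1 (0.996). PAX3 was most like KIF26B (0.976), BRPF3 (0.976) and MXD4 (0.975), and ZEB2 most like ANKRD13A (0.978), RFX5 (0.972) and TM9SF4 (0.972).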

How the data were processed

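Per the labels and the study's methods, RNA was prepared with a TruSeq RNA kit, which does not mark strand, and sequenced on a NovaSeq6000. The submitters' processing notes name Trimmomatic 0.39, kallisto, DESeq2 1.26.0 and GRCh38. The authors deposited TPM values per gene ID for the 12 libraries. How transcripts were summed to genes is not given in the sources used here. Because the table holds TPM and no counts, the study's count test was replaced by limma 3.58.1 in R 4.3.3 on log2(TPM + 1), with 1 coefficient per condition, variance moderation with a trend, and Benjamini-Hochberg adjustment over the 12773 gene IDs that reached a condition mean of 2 TPM anywhere. A call needed an adjusted p under 0.05, two-sided. The share of all genes whose libraries did not overlap between conditions was not counted. The number of reads is unknown, so no counting intervals are given. All columns of the table were mapped to samples by name.

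Same-numbered libraries deviated together from their condition means (r of 0.102 to 0.625 over 18 pairs, median 0.279), and this is where the pairing comes from, since the labels state only the numbers. The 36 pairs with different numbers had a median r of -0.20. Deviations within a condition sum to 0, so that negative value follows from the positive ones and is no separate support. Because of the pairing, replicate-block values are given where they change a call of a member or another named gene. The members and the context lists were chosen with earlier results of these data known. All members were named. From each context list, the genes were named that lay among the 4 largest called differences of at least 1 on the log2 scale in a comparison, and MIA, CDH1 and VIM in any case. Alternatives were pseudocounts of 0.1 and 0.5, no filter, a stricter filter (5 TPM on average across libraries), median centring, quantile normalization, no trend, only the compared conditions, the block, and leaving out each library. Rescaling without mitochondrial genes was added after seeing the data. The scripts were tested on simulated data. Positions are from GENCODE on GRCh38, promoters from RefSeq on GRCh38.p14, drawn with Python 3.11.15.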

Additional observations from a re-analysis of the deposited data

Results flagged for a closer look

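FABP7, a fatty acid binding protein of radial glia and one of the glial genes followed for context, was the single gene of the members and context lists whose IFNγ effect differed between siMITF and siCTRL cells by the interaction test in the fit as reported. Other settings added calls of SOX4 (adjusted p = 0.0292 with median centring and 0.0159 with quantile normalization), IRF4 (0.0499 with median centring), CDH19 (0.0269 with quantile normalization) and, as given above, TFAP2A. FABP7 stood at 197, 195 and 181 TPM in siCTRL and 218, 200 and 206 TPM in siCTRL + IFNγ. In siMITF it stood at 111, 117 and 114 TPM, below all other libraries, and in siMITF + IFNγ at 226, 206 and 187 TPM. The IFNγ effect was 0.12 in siCTRL and 0.85 in siMITF cells on the log2 scale, a difference of 0.73 (adjusted p = 0.00507, limma), and its adjusted p ranged from 0.00107 to 0.0493 over the alternatives. FABP7 was named after its values were seen.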

How the results depend on the processing

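The counts of members called for siMITF, with or without IFNγ or on average, and for both treatments together stayed within 1.5 times under every alternative run. The IFNγ count in siCTRL cells, 1, became 3 with median centring and 3 with quantile normalization (TFAP2A, PAX3 and POU3F2), and 2 with the replicate block or without mitochondrial genes. The IFNγ count in siMITF cells, 1, became 4 with median centring, 4 with quantile normalization, 3 with the block, and 2 without a trend or without mitochondrial genes. Over leaving out 1 library it ranged from 0 (without siMITF replicate 1 or siMITF replicate 3) to 3 (without siCTRL + IFNγ replicate 1), and it was 2 without siCTRL replicate 1 or siCTRL replicate 2. The interaction count, 0, became 1 (TFAP2A) with median centring, quantile normalization, the block, or without mitochondrial genes. The cause was not tested. Over single tested members and alternatives, 968 values kept their call and direction, 44 calls were lost, 33 were gained, and 12 uncalled differences changed sign. No called difference changed sign. Besides the calls given above, the replicate block changed no call of a tested member or named gene. Counts of the context lists were not recomputed under the alternatives, only the values of their named genes. Over all genes it raised the calls for IFNγ from 1652 to 3281 in siCTRL and from 2574 to 4556 in siMITF cells, and for the interaction from 121 to 276. Because reads per library are unknown, the precision of low values such as those of ZEB1 could not be given.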
